A study of Mus musculus with 354 samples.

Results

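The genes described here are 8 UDP-glycosyltransferases of the mouse liver: Ugt3a1, Ugt3a2, Ugt2a3, Ugt2b1, Ugt2b34, Ugt2b35, Ugt2b36 and Ugt2b38. They were chosen by name, as the Ugt2 and Ugt3 genes of interest in these arrays, and Ugt3a2 because its Control level differed between strains more than that of any other gene. A probe set annotated to 1 symbol was found for 5 of the 8 (6 probe sets), and all 5 genes were among the 14125 genes tested, out of 16670 with such a probe set. Ugt3a1, Ugt2b36 and Ugt2b38 had no such probe set in the annotation used and were not analysed here. Liver RNA of 354 male mice was measured, with 1 array for each animal (Affymetrix HT_MG-430 PM), across 45 strains of the Collaborative Cross, a panel of inbred lines that mix the genomes of several founder lines. Vehicle was given to 179 mice (labelled Control) and tolvaptan, which blocks the V2 receptor for vasopressin in the kidney, to 175, and the liver was taken 24 h later. In both groups dosing began at about 8 to 10 weeks of age, after about 7 days of acclimation, and food was withdrawn for about 18 h before the liver was taken, as diced median lobe. Each strain gave 4 mice per treatment, except for 4 of the 90 sets with 3 mice and 1 set with 2, and all values below are levels or differences of deposited log2 values.

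UDP-glycosyltransferases of the endoplasmic reticulum attach a sugar to small lipophilic molecules, which makes them water soluble and lets the liver export them into bile or blood. Enzymes of the UGT2 family use UDP-glucuronic acid, and in the liver they conjugate steroids, bile acids, fatty acids and drugs. UGT3 enzymes are relatives that use other sugar donors, in the human enzymes UDP-N-acetylglucosamine (UGT3A1) or UDP-glucose and UDP-xylose (UGT3A2). In the reference gene order the Ugt2 genes stand in 1 cluster on chromosome 5, while Ugt3a1 and Ugt3a2 are neighbours on chromosome 15.

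The promoters of Ugt2a3, Ugt2b1, Ugt2b34 and Ugt2b35 are shown because these genes varied together across strains (described further on). Each sequence runs from 250 bases before to 30 bases after the RefSeq gene start, on the gene's own strand, in build GRCm38.p6. The windows are chr5:87337166-87337445 (minus strand) for Ugt2a3, chr5:86926474-86926753 (minus strand) for Ugt2b1, chr5:86906908-86907187 (minus strand) for Ugt2b34 and chr5:87000610-87000889 (plus strand) for Ugt2b35. Capitals mark matches, on either strand, to the letters searched for C/EBP (TTGCNNAA), FOXA (TGTTTAC) and nuclear receptors (AGGTCA).
Ugt2a3: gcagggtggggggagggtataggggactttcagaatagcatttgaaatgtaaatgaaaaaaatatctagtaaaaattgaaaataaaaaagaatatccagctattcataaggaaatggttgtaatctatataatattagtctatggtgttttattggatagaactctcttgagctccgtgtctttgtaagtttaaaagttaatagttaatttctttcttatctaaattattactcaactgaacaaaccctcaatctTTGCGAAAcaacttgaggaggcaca
Ugt2b1: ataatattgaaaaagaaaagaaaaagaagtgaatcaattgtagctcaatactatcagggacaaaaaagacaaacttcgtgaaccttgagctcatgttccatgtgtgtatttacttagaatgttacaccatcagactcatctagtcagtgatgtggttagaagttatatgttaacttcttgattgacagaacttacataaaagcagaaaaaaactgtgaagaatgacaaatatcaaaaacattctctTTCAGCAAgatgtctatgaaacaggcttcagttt
Ugt2b34: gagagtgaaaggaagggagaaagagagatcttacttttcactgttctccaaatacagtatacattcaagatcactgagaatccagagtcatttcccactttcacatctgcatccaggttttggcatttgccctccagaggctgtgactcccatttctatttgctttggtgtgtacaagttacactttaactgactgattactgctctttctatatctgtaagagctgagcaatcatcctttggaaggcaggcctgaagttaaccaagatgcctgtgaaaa
Ugt2b35: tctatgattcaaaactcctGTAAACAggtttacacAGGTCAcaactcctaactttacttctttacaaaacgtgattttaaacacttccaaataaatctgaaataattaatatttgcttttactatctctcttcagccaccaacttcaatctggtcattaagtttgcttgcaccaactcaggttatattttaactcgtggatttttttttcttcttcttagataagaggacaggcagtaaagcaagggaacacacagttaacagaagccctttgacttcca
Ugt2a3 held 1 C/EBP match just after the gene start. Ugt2b1 held 1 C/EBP match across the gene start, Ugt2b35 held 1 FOXA and 1 nuclear receptor match, and Ugt2b34 held none of them. Among 32851 RefSeq promoters of the same length, 10.4% held the C/EBP letters, 3.49% the FOXA letters and 15.3% the nuclear receptor letters. The letters searched for the AHR core (GCGTG, in 30.8% of promoters), NFE2L2 (TGACNNNGC, 11.5%) and STAT5 (TTCNNNGAA, 7.83%) occurred in none of the 4 windows. None of these motifs overlapped another in the 4 windows. The longest run of letters that any pair of the 4 windows shared was 10 bases, between Ugt2b34 and Ugt2b35. All 4 windows were poor in G and C, with 31.8% to 41.8% against a median of 52.5% over all promoters. The letters GTTAAT, tied to the factor HNF1, were not among those counted here. They stand in lower case in the Ugt2a3 window, and no share of promoters is given for them. A match is a description of the letters only.

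The tissue label was borne out by hepatocyte markers: all 8 (Alb, Apoa1, Cps1, Hpd, Serpina1a, Tat, Tdo2 and Ttr) lay above the array's own median in all 354 arrays, with means from 11.3 to 13.7. The mean of the 8 ranged from 11.78 to 13.08 in Control arrays and from 11.85 to 13.15 in Tolvaptan arrays. Markers of other liver cells ranged from bright to dim. The brightest of their lists were Clec4g of the sinusoidal endothelium (mean 9.58), Cd5l of Kupffer cells (9.75) and Dcn of stellate cells (8.71). Dimmer members of the same 3 lists were Lyve1 (4.76), Marco (3.31) and Col1a1 (2.39). Marco lay above the array's median in 194 of 354 arrays and Col1a1 in 18. The 4 bile duct markers were dim, with means from 2.57 to 3.21 against a typical array median of 2.89, although their mean reached 5.13 in 1 array, and that of the neutrophil markers 10.59. In these bulk samples fewer cells of a type and less RNA per cell cannot be told apart. On 500 probe sets with strong strain differences, none of them of the genes described here, each array was correlated with the rest of the strain on its label. The value was at most 0.40 for 34 arrays, spread over 19 strains, and at least 0.68 for the remaining 320. Of the 34, 27 were labelled Control and 7 Tolvaptan, and 22 lay in scan 2 of 6 scan dates. These arrays are called off their strain below. The labels were kept, no array was given another strain, and results are given with and without the 34 arrays. Some strains also resembled each other on these probe sets: matching arrays of AU8021 correlated at 0.95 to 0.97 with AU18042, those of AU8024 at 0.81 to 0.91 with AU8033 and those of IL16012 at 0.69 to 0.81 with IL16912. In the other strains no matching array reached 0.5 with another strain. Every matching array of AU8021, AU8024 and AU8033, and 4 of 7 of AU18042, was at least as close to the other strain of its pair as to its own. Of the 8 arrays of IL16012 and the 8 of IL16912, 0 were. How these likenesses arose was not tested. Arrays have no read depth, and their number limits the precision.

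The signal of Ugt3a2 was either low or high in a mouse, with almost nothing between. It comes from 1 probe set, and whether strains differ in the sequence its probes bind was not tested, so a level below is the signal of this probe set. Of the 354 arrays, 132 lay below 6.5 (2.30 to 5.70, median 4.01), 221 lay above 9 (9.97 to 11.82, median 11.20) and 1 lay between, at 7.66. Of the 132 low arrays, 3 lay below their own array's median and 128 below its 75th percentile, which was between 4.55 and 5.36, whereas all 221 high arrays lay above that percentile. Both treatments held both kinds, with 68 low and 111 high arrays in Control and 64 low, 1 intermediate and 110 high arrays in Tolvaptan. In the plot of Ugt3a2 by strain the side went with the strain and not with the treatment, and every strain that mixed low and high arrays held arrays off their strain.

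**Figure D1:**
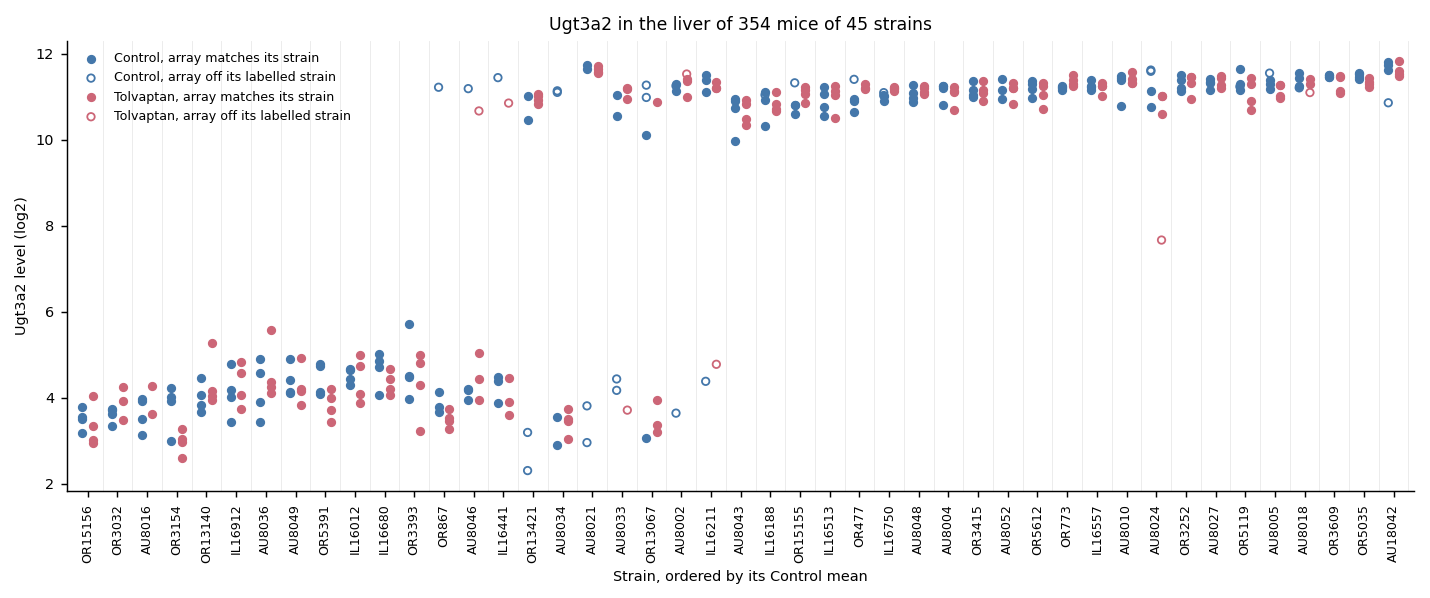
Ugt3a2 level (log2) of each of 354 mice, with the 45 strains ordered by Control mean. Blue points are Control and red points Tolvaptan, filled where the array matches its labelled strain and open for the 34 arrays off it. Points lie either from 2.30 to 5.70 or from 9.97 to 11.82, apart from 1 open point at 7.66, and the filled points of a strain lie on 1 side except in OR13067.

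These Control levels chose the gene, so they are given as a description with no test. The lowest Control means were in OR15156 (3.50 ± 0.25, SD, 4 mice here and for each strain below unless stated), OR3032 (3.60 ± 0.18), AU8016 (3.63 ± 0.40) and OR3154 (3.78 ± 0.55). Next came OR13140 (4.0 ± 0.34), IL16912 (4.10 ± 0.55), AU8036 (4.19 ± 0.66) and AU8049 (4.39 ± 0.37). They were followed by OR5391 (4.44 ± 0.38), IL16012 (4.51 ± 0.18), IL16680 (4.66 ± 0.42) and OR3393 (4.66 ± 0.74). In these 12 strains every array of both treatments was low and none was off its strain, and the mice of each strain overlapped those of the next in this order.

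At the other end, 3 strains reached Control means of 11.50 ± 0.44 (AU18042), 11.48 ± 0.061 (OR5035) and 11.48 ± 0.031 (OR3609). Just below were AU8018 (11.35 ± 0.16), AU8005 (11.35 ± 0.16), OR5119 (11.33 ± 0.22), AU8027 (11.31 ± 0.10), OR3252 (11.31 ± 0.17), AU8024 (11.27 ± 0.41), AU8010 (11.27 ± 0.33), IL16557 (11.25 ± 0.093) and OR773 (11.21 ± 0.042). A last set held OR5612 (11.20 ± 0.17), AU8052 (11.17 ± 0.24, 3 mice), OR3415 (11.14 ± 0.17), AU8004 (11.12 ± 0.22), AU8048 (11.05 ± 0.17), IL16750 (11.01 ± 0.077), OR477 (10.98 ± 0.31), IL16513 (10.90 ± 0.30), OR15155 (10.88 ± 0.31), IL16188 (10.84 ± 0.37) and AU8043 (10.64 ± 0.45). The 23 high strains thus spanned less than 1 log2 unit, and each overlapped its neighbour in the order.

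The other 10 strains had intermediate Control means with large spreads, because each held low and high mice. The means were 5.69 ± 3.69 in OR867, 5.88 ± 3.54 in AU8046, 6.05 ± 3.61 in IL16441, 6.74 ± 4.63 in OR13421 and 7.17 ± 4.56 in AU8034. They were 7.53 ± 4.81 in AU8021, 7.55 ± 3.76 in AU8033, 8.85 ± 3.90 in OR13067, 9.33 ± 3.79 in AU8002 and 9.60 ± 3.48 in IL16211. Without the 34 arrays, OR867, AU8046, IL16441 and AU8034 were low in all arrays, and OR13421, AU8021, AU8033, AU8002 and IL16211 were high in all arrays. That left 16 low strains, 28 high strains and OR13067. The like strains lay on the same side, with AU8021, AU18042, AU8024 and AU8033 high and IL16012 and IL16912 low, so that 15 low and 26 high strains are left when each pair is counted once. The highest low strain was OR3393 at 4.66 and the lowest high strain was AU8043 at 10.64, a gap wider than the range within either set.

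OR13067 was mixed in both treatments among arrays that match their strain. In Control its mice measured 3.05, 10.10, 10.98 and 11.27, where the latter 2 arrays were off their strain at correlations of 0.29 and 0.27. In Tolvaptan its mice measured 3.19, 3.36, 3.94 and 10.89, and all 4 arrays matched the strain at 0.90 or more. The Control mice at 3.05 and 10.10 matched it at 0.93 and 0.95. So 4 of the 6 matching arrays were low and 2 were high, whereas Ugt2b1, for example, lay between 11.64 and 11.90 in these 8 mice.

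The arrays off their strain were also compared with the strain they resembled most, without any relabelling. Of the 34, 32 carried the label of a strain whose matching arrays all lay on 1 side, and 18 of these 32 lay on the opposite side or between. Of the 31 arrays that correlated at 0.7 or more with another strain, 28 lay on the side of that strain. The 3 exceptions were 2 OR13421 Control mice at 2.30 and 3.19, closest to the mixed strain OR13067, and the AU8024 Tolvaptan mouse at 7.66, closest to the low strain AU8046. Of the 32 arrays, 14 lay on the side of their labelled strain. Where the labelled and the closest strain lay on the same side, the side does not tell them apart. As 28 of the 45 strains were high, many arrays would share a side in any case.

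Among Tolvaptan arrays, which were not used to choose the gene, strain differences in Ugt3a2 could be tested. Strain means ran from 2.97 ± 0.28 in OR3154 to 11.62 ± 0.075 in AU8021, and 90.7% of the variance lay between strains, against a median of 44.3% over all genes. The limma F test across strains gave F = 16.4 and an adjusted p of 4.07e-51, and 74.7% of all genes passed the same test. Without the arrays off their strain F was 120 (adjusted p = 2.30e-132). Without those arrays the 16 low strains reached up to 4.57 in AU8036, OR13067 followed at 5.34 ± 3.71, and the 28 high strains began at 10.64 in AU8043. The low and high sets were drawn on arrays of both treatments, with limits set after seeing the values. Their separation here is thus a description and no separate test. The SD of the Tolvaptan strain means, 3.38, ranked 1 of 14125 genes. In Control arrays the corresponding share was 77.5% (rank 97 of 14125), and 98.1% (rank 7) without the arrays off their strain.

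No change of Ugt3a2 with tolvaptan was called. Control mice ranged from 2.30 to 11.80 with a median of 10.94, and Tolvaptan mice from 2.6 to 11.82 with a median of 10.95. The 2 groups overlapped over nearly their whole range. The mean over strains of Tolvaptan minus Control was 0.0040 ± 0.17 (SE; 95% interval -0.34 to 0.34; limma adjusted p = 0.997), positive in 20 of 45 strains. Without the arrays off their strain it was -0.032 ± 0.070 (adjusted p = 0.914), and the difference of strain means stayed within 0.5 in 42 of 45 strains.

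The 4 Ugt2 genes varied between strains in a graded way, with no gap such as that of Ugt3a2. The SD of their Control strain means was 0.33 for Ugt2a3, 0.31 for Ugt2b1, 0.41 for Ugt2b34 and 0.28 for Ugt2b35. Every one of their probe sets lay above the array's median in all 354 arrays. In Control arrays all 4 passed the F test for strain differences, which 74.9% of all genes passed, so the count is not particular to them. The adjusted p was 2.38e-06 for Ugt2a3, 5.16e-07 for Ugt2b1, 0.0350 for Ugt2b34 and 0.00174 for Ugt2b35 (limma). All 4 passed it again among Tolvaptan arrays, with adjusted p of 2.72e-07, 4.68e-13, 0.000621 and 2.59e-06 in the same order. The share of Control variance between strains was 42.7% for Ugt2a3, 48.0% for Ugt2b1, 35.0% for Ugt2b34 and 38.4% for Ugt2b35, beside a median of 39.7% over all genes. Without the arrays off their strain the shares were 56.7%, 53.9%, 44.5% and 52.5%, beside a median of 48.3%.

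Ugt2a3, whose human counterpart glucuronidates bile acids, ranged from 7.05 to 9.90 in Control mice with a median of 8.92. Its lowest Control means were in IL16188 (8.07 ± 0.89), IL16680 (8.12 ± 0.61) and OR15155 (8.37 ± 0.066), and its highest in AU8018 (9.50 ± 0.28), AU8016 (9.33 ± 0.24) and IL16211 (9.30 ± 0.45). The extremes did not overlap each other, since IL16188 reached no higher than 9.01 and AU8018 began at 9.11, but each strain overlapped its neighbour in the order.

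Ugt2b1, a UGT2 enzyme of the liver, ranged from 10.12 to 12.22 in Control mice with a median of 11.55. Its lowest Control means were in IL16188 (10.66 ± 0.55), AU8004 (10.85 ± 0.25) and AU8046 (10.87 ± 0.22), and its highest in AU8002 (11.91 ± 0.21), OR3393 (11.90 ± 0.21) and AU8034 (11.89 ± 0.16). The same 3 strains had the lowest means among Tolvaptan arrays, at 10.41 ± 0.42, 10.55 ± 0.19 and 10.76 ± 0.34, and the highest there was OR3609 at 12.07 ± 0.084.

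Ugt2b34 had the widest range of the 4, from 6.70 to 10.69 in Control mice with a median of 9.28, and a median spread within strains of 0.58. Its lowest Control means were in IL16513 (8.09 ± 1.0), IL16188 (8.18 ± 1.09) and OR13140 (8.50 ± 0.70), and its highest in IL16211 (9.89 ± 1.21), IL16012 (9.85 ± 0.59) and OR3393 (9.83 ± 0.17). The extreme strains overlapped, since mice of IL16211 reached down to 8.09 and mice of IL16513 up to 8.84. OR3393 had the highest mean of the 45 strains among Tolvaptan arrays, at 10.23 ± 0.36. The second probe set of Ugt2b34 gave a closely similar share of Control variance between strains, 34.5%.

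Ugt2b35 ranged from 8.74 to 10.92 in Control mice with a median of 10.11. Its lowest Control means were in IL16188 (9.34 ± 0.64), IL16513 (9.36 ± 0.54) and OR13140 (9.48 ± 0.092), and its highest in AU8016 (10.66 ± 0.22), AU8027 (10.54 ± 0.24) and AU8036 (10.49 ± 0.41). In each of the 4 genes, all 44 pairs of neighbours in the Control order overlapped in their mice.

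**Figure D2:**
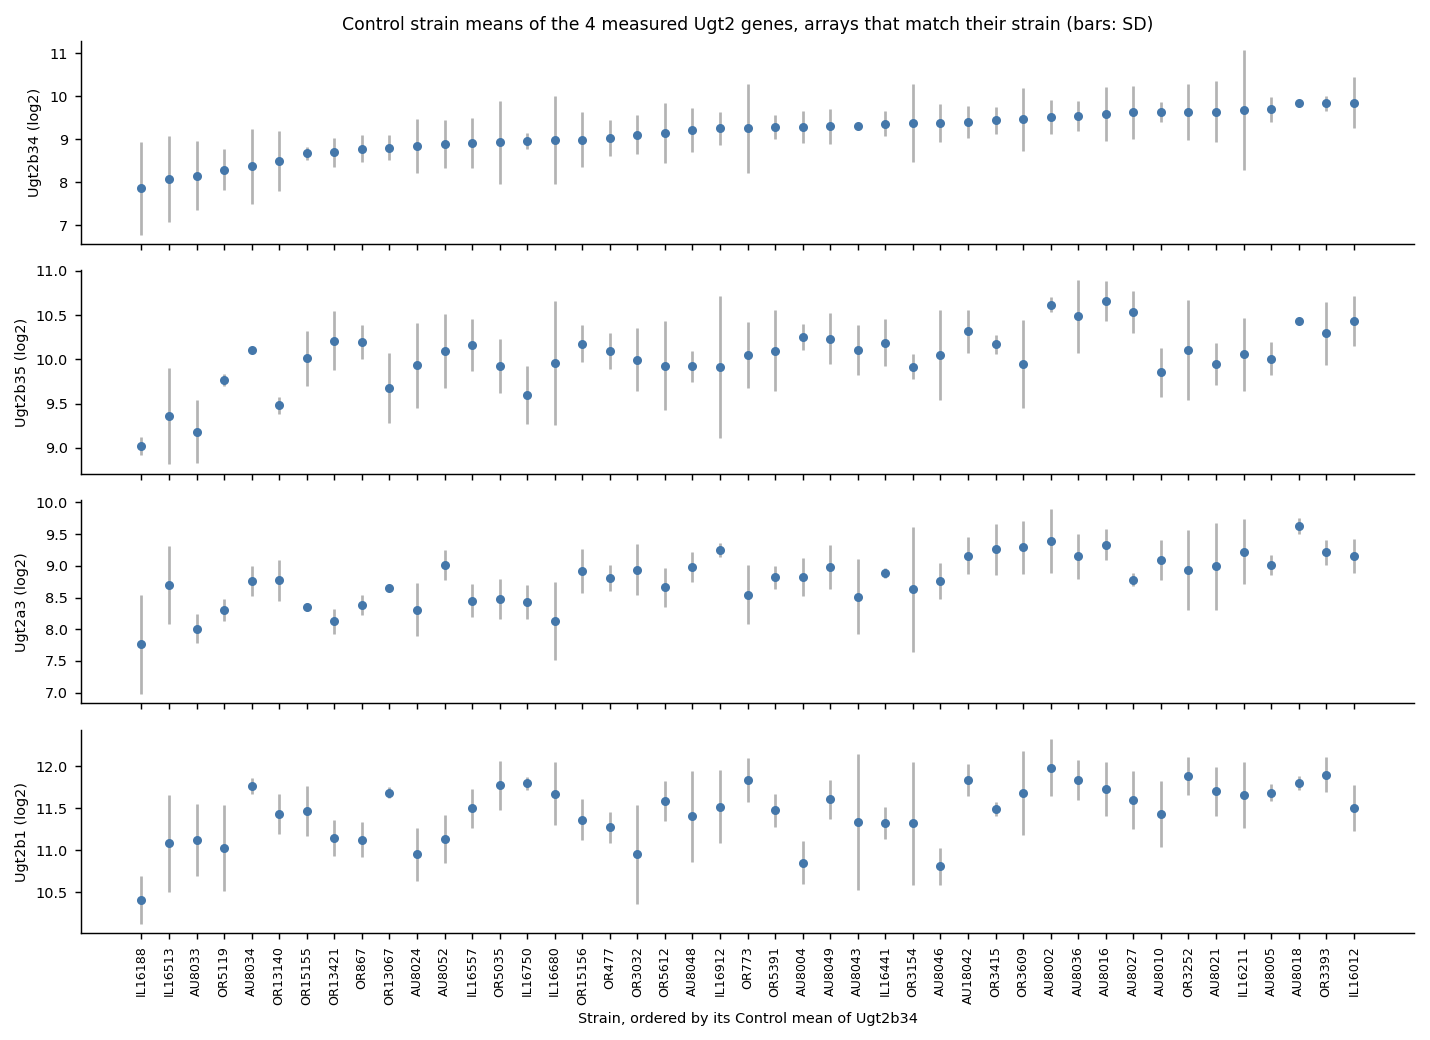
Control strain means (log2) of Ugt2b34, Ugt2b35, Ugt2a3 and Ugt2b1 with SD bars, over arrays that match their strain (2 to 4 mice a strain), in the order of Ugt2b34. The other 3 genes tend to rise along the order, and IL16188 is lowest in all 4 panels.

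IL16188, named here after its values were seen, stood low in the 4 Ugt2 genes described here. Without its 1 array off the strain it had the lowest Control mean of the 45 strains in all 4, at 7.76 for Ugt2a3, 10.41 for Ugt2b1, 7.86 for Ugt2b34 and 9.02 for Ugt2b35. In its separate Tolvaptan mice it ranked lowest of 45 for Ugt2a3 (8.15 ± 0.39) and Ugt2b1 (10.41 ± 0.42), rank 2 for Ugt2b35 (9.54 ± 0.52) and rank 5 for Ugt2b34 (8.69 ± 0.69). Ugt3a2 was high in this strain, at 10.84 ± 0.37. AU8018, also named after its values were seen, stood high: its means over 3 Tolvaptan mice, 1 of them off its strain, ranked 45 of 45 for Ugt2a3 (9.73 ± 0.21) and Ugt2b35 (10.91 ± 0.13), 44 for Ugt2b34 (9.99 ± 0.18) and 43 for Ugt2b1 (11.93 ± 0.16).

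The 4 Ugt2 genes varied together. Over the 45 Control strain means, Pearson's r was 0.69 for Ugt2b34 with Ugt2b35, 0.67 for Ugt2a3 with Ugt2b34, 0.56 for Ugt2a3 with Ugt2b35, 0.53 for Ugt2b1 with Ugt2b35, 0.44 for Ugt2b1 with Ugt2b34 and 0.41 for Ugt2a3 with Ugt2b1. Leaving out the 2 strains farthest from the median gave 0.37 to 0.64 for the 6 pairs, and counting each pair of like strains once (42 strains) gave 0.42 to 0.70. Over Tolvaptan strain means the 6 values ran from 0.39 to 0.63, and within strains, over the 320 matching arrays, from 0.39 to 0.69. The points of a pair share their arrays and their normalization, and no p is given. No r of ordinary gene pairs is set beside these values. Genes outside the family reached higher ones, such as Ddx50 with Ugt2b34 (0.85), Nfib with Ugt2b35 (0.76) and Pde3b with Ugt2a3 (0.74). Measures of the arrays moved with them: r with the strain mean of the array's 75th percentile was 0.53 for Ugt2b34, 0.41 for Ugt2b35, 0.29 for Ugt2a3 and 0.037 for Ugt2b1. Against the spread of relative log expression it was -0.42, -0.41, -0.34 and 0.063 in the same order, and against the mean of the 8 hepatocyte markers 0.23, 0.096, 0.30 and 0.14. The part of these measures in the joint variation was not tested.

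Because the strains fall into a low and a high set in Ugt3a2, its correlation with the Ugt2 genes was computed within each set. The sets were drawn on the values of Ugt3a2 itself, so these are descriptions. Within the 28 high strains, without the arrays off their strain, its Control mean went with Ugt2a3 (r = 0.60), Ugt2b1 (0.57), Ugt2b34 (0.57) and Ugt2b35 (0.38). In the Tolvaptan mice of the same 28 strains r was 0.46, 0.55, 0.42 and 0.33. In the 16 low strains the Control values were -0.015, 0.25, 0.54 and 0.065. Between mice of the same strain and treatment, over the 320 matching arrays of all strains, r was 0.087, 0.15, 0.078 and 0.10. These arrays include the low strains and OR13067, whose matching mice lay on both sides and so weigh heavily in the spread of Ugt3a2. The values are therefore no direct counterpart of those in the 28 high strains. The array's 75th percentile again moved with the gene, at r = 0.59 with Ugt3a2 in the Control means of the 28 high strains, and its part was not tested.

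The genes most like each Ugt2 gene over the 45 Control strain means were named by rank of r. For Ugt2b1 they were Ugt2b5 (0.63), another Ugt2 gene of the same cluster, Cyp4a12a (0.61), a fatty acid hydroxylase higher in male liver, and Hsd3b5 (0.58), a steroid enzyme higher in male liver. Over Tolvaptan means their r with Ugt2b1 was 0.66, 0.64 and 0.53. For Ugt2b35 they were Nfib (0.76), a nuclear factor I transcription factor, Ugt2b5 (0.74) and Dkc1 (0.70), the pseudouridine synthase dyskerin. Over Tolvaptan means these were 0.52, 0.73 and 0.58.

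For Ugt2b34 the most like genes were Ddx50 (0.85), an RNA helicase, Nadk2 (0.85), the mitochondrial NAD kinase, and Mgam (0.83), maltase-glucoamylase, with 0.77, 0.80 and 0.69 over Tolvaptan means. For Ugt2a3 they were Pde3b (0.74), a cyclic nucleotide phosphodiesterase, Sf3b1 (0.73), a splicing factor, and Nr1d2 (0.72), a clock repressor, with 0.57, 0.57 and 0.50 over Tolvaptan means. Only Ugt2b5 among these 12 entries lies on the same chromosome as its Ugt2 gene, and in the RefSeq order of the Ugt2 genes 1 of them lies between it and Ugt2b35 and 2 between it and Ugt2b1.

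For Ugt3a2, 4 of the 5 most like genes lay near it on chromosome 15. They were Wdr70 (r = 0.59, with 10 protein-coding genes between), Lifr (0.57, 13 between), the receptor of leukemia inhibitory factor, Osmr (0.56, 14 between), the oncostatin M receptor, and Cplane1 (0.49, 8 between), a cilium protein. The other, Ncapd2 (0.49), a condensin subunit, lies on chromosome 6, and its r was 0.019 over Tolvaptan means, against 0.63, 0.57, 0.57 and 0.55 for the 4 genes of chromosome 15. Because the strains fall into separate sets, each r mainly compares the sets. Wdr70 was 3.40 ± 0.64 over the 16 low strains and 4.85 ± 0.83 over the 28 high strains, without the arrays off their strain, and the sets overlapped, from 2.36 to 5.03 and from 2.77 to 5.71. Lifr was 7.57 and 8.25 in the same order. Cplane1 (3.38 and 3.65) and Osmr (2.71 and 3.12) were dim, not far from the typical array median of 2.89, and Ncapd2 (2.21 and 2.47) lay below it.

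Within the sets the order was not the same for every gene. Lifr kept r = 0.51 in the 16 low strains and 0.60 in the 28 high strains, and Cplane1 kept 0.59 and 0.54. Wdr70 had 0.27 and -0.31, and Osmr 0.046 and 0.066. The genes at the opposite end were Mkx (-0.58), a homeobox factor, Myo10 (-0.54), an unconventional myosin on chromosome 15 with 32 genes between, and Gnptab (-0.54), which tags lysosomal enzymes. Mkx was dim too, at 3.31 over the low strains and 2.78 over the high strains. Without the arrays off their strain, 5 of the 10 genes most like Ugt3a2 lay on chromosome 15, which holds 3.80% of the genes tested.

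**Figure D3:**
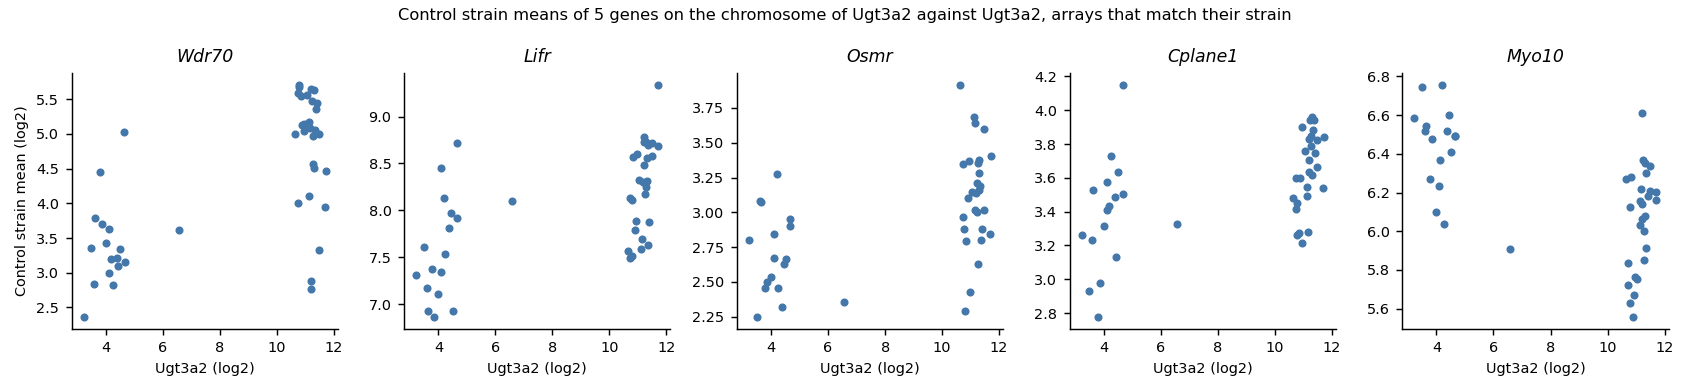
Control strain means (log2) of Wdr70, Lifr, Osmr, Cplane1 and Myo10, the named genes on the chromosome of Ugt3a2, against Ugt3a2 (log2) in 45 strains, over arrays that match their strain. The strains form a low and a high set in Ugt3a2 with OR13067 between, and the other genes overlap between the sets.

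The nearest genes were not all alike in pattern. Of the 10 nearest protein-coding genes on each side, 12 in all were tested, and their r with Ugt3a2 ran from -0.41 (Agxt2, a mitochondrial aminotransferase, with 4 genes between) to 0.49 (Cplane1). Nadk2, with 3 genes between, had -0.16 at a Control mean of 9.34, and Skp2, with 2 between, had -0.088 at 2.64. Skp2 lay below the typical array median of 2.89, as did Ranbp3l (2.21) and Ttc23l (2.16), so an r near 0 says little for them. Ugt3a1, the immediate neighbour, was not analysed here.

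For the average over strains, no change with tolvaptan was called in any of the 5 genes. None of the 5 was called by limma at an adjusted p of 0.05, where 70 of 14125 genes (0.496%) were, and 1 of the 5 had an unadjusted p below 0.05, as did 9.56% of all genes. Without the arrays off their strain none of the 5 was called either, against 0.312% of all genes. Of the 5 differences 4 were positive and their median was 0.013, beside 50.3% positive and a median of 0.00027 over all genes.

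Ugt2b35 had the lowest p. Its Control mice ranged from 8.74 to 10.92 (median 10.11) and its Tolvaptan mice from 8.31 to 11.16 (median 10.18). The groups overlapped throughout. The mean difference over strains was 0.11 ± 0.044 (SE; 95% interval 0.022 to 0.19), positive in 32 of 45 strains, with p = 0.0136 and a limma adjusted p of 0.341. It was positive in each of the 6 scans but called in none of them (limma). The values were 0.18 ± 0.081 (SE) in scan 1, 0.014 ± 0.093 in scan 2 and 0.13 ± 0.062 in scan 3. They were 0.15 ± 0.10 in scan 4, 0.14 ± 0.21 in scan 5 and 0.12 ± 0.26 in scan 6, where 1 strain could be compared. The difference of Ugt2b35 also depended on the arrays kept. In the 26 strains in which every array matched the label it was 0.19 ± 0.055 and was called (limma adjusted p = 0.0440), in a setting that called 300 genes, 2.12% of those tested. Without only the 34 arrays it was 0.14 ± 0.044 (adjusted p = 0.133).

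The other 3 Ugt2 genes had smaller differences over strains. Ugt2b34 was 9.17 ± 0.69 (SD, 179 mice) in Control and 9.25 ± 0.66 (175 mice) in Tolvaptan, a mean difference of 0.081 ± 0.063 (95% interval -0.043 to 0.21, adjusted p = 0.747), and its second probe set gave 0.066 ± 0.053. The difference of Ugt2b34 was positive in each of the 6 scans too, from 0.0046 ± 0.11 (SE) in scan 3 to 0.32 ± 0.39 in scan 6. Ugt2a3 was 8.84 ± 0.50 and 8.84 ± 0.46, a difference of 0.013 ± 0.042 (95% interval -0.070 to 0.097, adjusted p = 0.962). Ugt2b1 was 11.50 ± 0.44 and 11.44 ± 0.47, a difference of -0.047 ± 0.037 (95% interval -0.12 to 0.025, adjusted p = 0.753), which was 0.0013 ± 0.039 without the arrays off their strain. Each of these differences was smaller than the SD between the mice of either group.

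**Figure D4:**
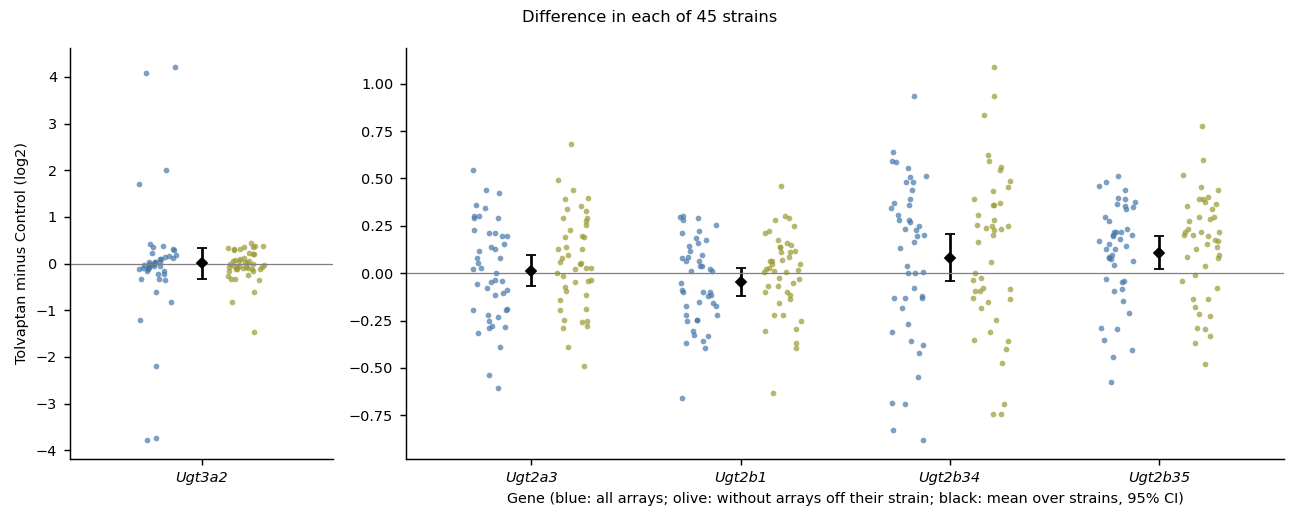
Tolvaptan minus Control (log2) in each of 45 strains for Ugt3a2 (left, wider scale) and the 4 Ugt2 genes, with all arrays in blue and without the arrays off their strain in olive. Black diamonds are means over strains with 95% intervals; the Ugt3a2 strains beyond 1 log2 unit in blue draw in without those arrays, and only OR13067, at -1.47, stays beyond 1.

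No strain dependence of the response was called either. None of the 5 genes was called in the F test of equal differences across strains (limma), where 3 of 14125 genes (0.0212%) were, and the unadjusted p was 0.0754 for Ugt3a2 and above 0.5 for the other 4, so that none of the 5 was below 0.05. Within single strains none of the 225 pairs of gene and strain was called by limma, where 0.281% of pairs over all genes were, and 10 of the 225 had an unadjusted p below 0.05. Over all genes 5.45% of such pairs did. Without the arrays off their strain 7 of the 225 pairs did, and 0 were called. For Ugt3a2, with all arrays, the residual SD shared by all strains was 1.63, beside a median Control SD within strains of 0.34. The absence of calls within single strains therefore says little about smaller differences of this gene.

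The 4 lowest p among these 10 pairs were for Ugt3a2, in strains with 2 arrays off their strain each. The fitted differences were 4.22 ± 1.14 (SE) in OR13421, 4.08 ± 1.14 in AU8021, -3.74 ± 1.14 in AU8034 and -3.78 ± 1.16 in OR13067, with limma adjusted p from 0.0687 to 0.162. Without those arrays they were 0.23, -0.063, 0.22 and -1.47. The other 6 pairs were for Ugt2 genes, none of them called. Ugt2b34 in OR13140, where every array matched the strain, was 8.50 in Control and 9.43 in Tolvaptan (limma adjusted p = 0.659). In IL16211, with 2 arrays off the strain, the difference was -0.66 for Ugt2b1 and -0.83 for Ugt2b34 (limma adjusted p = 0.671 for both), and -0.63 and -0.74 without those arrays. In AU8034, also with 2 such arrays, it was -0.61 for Ugt2a3 and -0.88 for Ugt2b34, and -0.26 and -0.25 without them. In AU8024, with 3, it was -0.57 for Ugt2b35 and -0.48 without them. Some differences grew instead when such arrays were left out. In AU8033, not among the 10 pairs, Ugt2b34 went from 0.13 to 1.09 and Ugt2b35 from 0.17 to 0.78 (limma adjusted p = 0.207 and 0.176 without them).

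**Figure D5:**
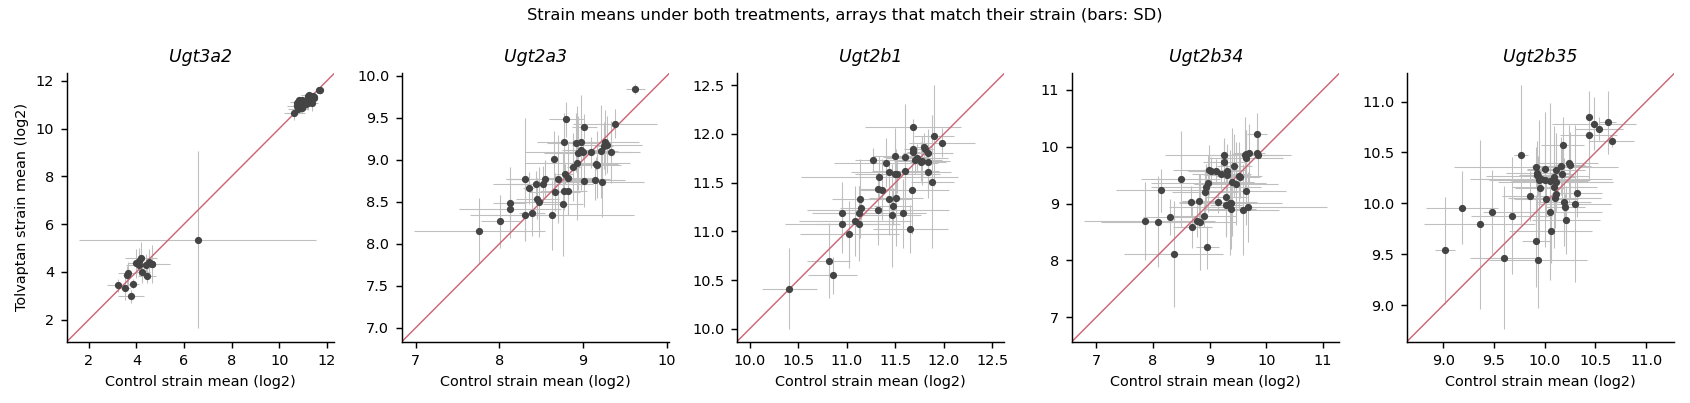
Tolvaptan strain mean against Control strain mean (log2, bars SD) for each of the 5 genes in 45 strains, over arrays that match their strain, with the line of equality. Ugt3a2 forms a low and a high set on the line with OR13067 between them, and the Ugt2 strains scatter around the line.

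Control and Tolvaptan mice of a strain tended to stand at like levels. For the Ugt2 genes the r of Control with Tolvaptan strain means, without the arrays off their strain, was 0.83 for Ugt2b1, 0.79 for Ugt2a3, 0.66 for Ugt2b35 and 0.62 for Ugt2b34, over 45 strains and from separate mice. With all arrays it was 0.80, 0.70, 0.66 and 0.57.

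The lists around these enzymes were chosen with earlier results of these data known, and they are described by counts. Of 14 other Ugt genes 6 were tested and none was called for tolvaptan by limma, with 0 at an unadjusted p below 0.05 and a median difference of 0.0072. The lowest p were those of Ugt8a (-0.038 ± 0.021), Ugt2b5 (0.066 ± 0.038) and Ugt2b37 (0.090 ± 0.066). Ugt8a and Ugt2b37 lay near the typical array median, at Control means of 2.75 and 2.83. Ugt2b5 was higher in 31 of 45 strains (limma adjusted p = 0.602), and over Control strain means it went with Ugt2b34 and Ugt2b35 at r = 0.74 each. Ugt1a1, the bilirubin-conjugating enzyme, was not analysed here.

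Among genes of sugar donor supply, none of 14 tested was called by limma (1 at an unadjusted p below 0.05, median 0.020), and the value was 0.020 ± 0.039 for Ugdh, which makes UDP-glucuronic acid, and 0.098 ± 0.046 for Pgm3, of the UDP-N-acetylglucosamine route (adjusted p = 0.467). It was -0.032 ± 0.018 for Pgm1, a phosphoglucomutase, and -0.034 ± 0.025 for Uxs1, which makes UDP-xylose. Of 6 genes of glucuronide export and hydrolysis none was called by limma, with 3 at an unadjusted p below 0.05 (9.56% over all genes), a median of 0.051 and 5 positive. Abcc2, the canalicular exporter of glucuronides, was 9.48 in Control and 9.61 in Tolvaptan, a difference of 0.14 ± 0.045 in which 35 of 45 strains were positive (limma adjusted p = 0.143). Abcc4 had 0.10 ± 0.039, Gusb, the glucuronidase that removes the sugar, 0.057 ± 0.027, and Abcc3, the basolateral exporter, -0.0065 ± 0.049.

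Of 14 tested transcription factors tied to Ugt genes none was called by limma, with 1 at an unadjusted p below 0.05, a median of -0.033 and 4 positive. Foxa3 had the lowest p (-0.13 ± 0.047, adjusted p = 0.257), followed by Nr1h4, the bile acid receptor (-0.049 ± 0.027), and Nr0b2 (-0.12 ± 0.073), and Hnf4a, a master regulator of hepatocyte genes, had -0.028 ± 0.018. Of 7 male-biased liver genes none was called by limma (2 at an unadjusted p below 0.05, median -0.065), with Hsd3b5 at -0.40 ± 0.14, Cyp2u1 at -0.11 ± 0.049 and Elovl3 at -0.18 ± 0.11. Of 5 female-biased genes none was called by limma (0 at an unadjusted p below 0.05, median 0.091), with Sult3a1 at 0.28 ± 0.15, Cyp2b13 at 0.091 ± 0.058 and Cux2 at 0.12 ± 0.089. The Control means of Sult3a1 (2.77 ± 2.69, SD) and Cyp2b13 (2.40) lay below the typical array median of 2.89. Those of Cux2 (3.31) and of Cyp2u1 (3.24) were not far above it. Of 9 growth hormone axis genes 1 was called: Ghr, the growth hormone receptor, fell by 0.13 ± 0.025, and was lower in 35 of 45 strains (limma adjusted p = 0.000721). Without scan 2 its difference was -0.049 (adjusted p = 0.916) and in scan 1 alone -0.016 (adjusted p = 1.0), so that the call was lost in both.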

How the data were processed

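The deposited table holds log2 values, made by the authors with RMA and the software Affymetrix Expression Console, per the submitters' processing notes. Versions, and whether all arrays were normalized together, are not given in the sources used here. Of its 42597 probe sets, 27691 had a single gene symbol in the platform annotation, 493 had more than 1, 14376 had no symbol and 37 were controls. RefSeq, used for names and gene order, held the Entrez ID of 27494 single-symbol probe sets. The brightest of these on average stood for a gene, and a gene was tested where it exceeded the array median on 4 arrays or more.

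limma 3.58.1 in R 4.3.3 was fitted on all 14125 genes with 1 mean per strain and treatment plus scan date (6 scans, scan 1 with 1 mouse per strain and treatment), all mice sharing 1 residual spread per gene. All p-values are two-sided and were adjusted by Benjamini and Hochberg's method over all genes, with a threshold of 0.05, for these quantities: the mean over strains of Tolvaptan minus Control, the difference in each strain, and F tests of equal differences and of equal strain means. The share of variance between strains is 1 minus the within-strain over the total sum of squares. Steps were tested on simulated data. Levels were summarised with Python 3.11.15. Every measured gene was named, with its 3 highest and 3 lowest strains by Control mean (all strains for Ugt3a2), the 3 genes of highest r (for Ugt3a2 the 5 highest and 3 lowest), and from each list the called genes or up to 3 of lowest p, with Ugt1a1, Ugdh, Abcc2, Abcc3, Gusb and Hnf4a always. The genes, lists, limits and alternatives were chosen with earlier results of these data known. The limits of 6.5 and 9 for Ugt3a2 were set after seeing its values. Each array is a separate mouse. Promoters come from RefSeq (7 of the 8 genes matched).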

Additional observations from a re-analysis of the deposited data

Results flagged for a closer look

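Among 109 groups of 4 mice of 1 strain and treatment, counted by gene where levels are reported, 18 held 1 mouse far from the other 3. As 85 sets of strain and treatment held 4 mice, the 109 do not cover every gene in every set. In each of the 18 the gap to the nearest mouse was 0.837 or more of the range of the 4. The same mice recur under several genes, and Ugt3a2 was chosen for its spread between strains, so no chance rate is set beside this count. Of the 18, 11 were arrays off their strain, 15 concerned Ugt3a2, and in 11 the mouse was more than 5 log2 units away. How the 109 groups divide between the genes is not given, so the 15 cannot be compared with the share of Ugt3a2 among them.

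For Ugt3a2 the Control mice that stood apart were 3.64 in AU8002, 11.19 in AU8046, 4.38 in IL16211, 11.44 in IL16441 and 11.22 in OR867, all arrays off their strain, and 3.05 in OR13067, which matched its strain. The Tolvaptan mice were 7.66 in AU8024, 3.71 in AU8033, 10.67 in AU8046, 4.77 in IL16211 and 10.85 in IL16441, all arrays off their strain, and 10.89 in OR13067, which matched its strain. Smaller gaps were seen in arrays that match their strain: 10.80 in AU8004 Control, 10.77 in AU8010 Control and 5.28 in OR13140 Tolvaptan.

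For Ugt2b34, 1 Control mouse of IL16012 measured 8.97 against 10.07 to 10.26 in the other 3, and 1 of IL16211 measured 8.09 against 10.27 to 10.69; both arrays matched their strain. For Ugt2b35, the Control mouse of IL16188 at 10.29 against 8.91 to 9.10 was an array off its strain. What set these mice apart was not tested.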

How the results depend on the processing

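The number of genes called for Tolvaptan over strains, 70, was 44 without the arrays off their strain, 300 in the 26 strains that hold none, 0 in scan 1 alone (limma, with 358 genes at an unadjusted p under 0.05), 158 in scans 2 to 6, 1 without scan 2 and 18 with the strain as the unit. The number of the 5 glycosyltransferases called was 1, Ugt2b35, in the 26 strains and 0 under the others. It stayed at 0 with no scan term, quantile normalization, array medians subtracted, other filters on dim genes and the 4 arrays of highest spread left out. Some differences that did not pass the test changed sign. Ugt3a2 was -0.032 without the arrays off their strain, -0.044 in the 26 strains, -0.056 in scans 2 to 6 and -0.012 without the 4 arrays of highest spread. Ugt2b1 was 0.0013 without the arrays off their strain, 0.077 in scan 1 alone and 0.011 without scan 2. Ugt2a3 was -0.026 in scans 2 to 6. The cause was not tested. Ugt2b34 and Ugt2b35 were positive under all of them.

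Of the 5 genes most like Ugt3a2, 4 remained without the arrays off their strain, 3 over Tolvaptan strain means and 2 over Tolvaptan means without those arrays, a setting added after seeing the data. With each pair of like strains counted once, also added after seeing the data, 4 remained, and r of Ugt3a2 with the 4 Ugt2 genes in the 26 high strains was 0.35 to 0.57. Leaving out each mouse within a strain had nothing to recompute, because none of the 5 genes was called in any strain. When each strain was fitted on its own arrays, 0 of 225 pairs were called (limma), with 21 at an unadjusted p under 0.05. Among the low Ugt3a2 strains the mice of each strain overlapped those of the next in the Control order. This does not hold for every pair farther apart in that order.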
